A study of Mus musculus with 28 samples.

Results

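The hair germ RNA libraries made with SHERRY2 are 4 of the 28 samples of a study on the m6A demethylase Alkbh5 in mouse hair follicle stem cells. They were chosen by their labels and by the matching columns of 1 deposited table, and cover 47243 gene symbols. The wild-type (WT) group holds 2 mice, and the conditional knockout group (Alkbh5 cKO) holds 2 mice, all at postnatal day 69. Cells labelled as hair germ stem cells were sorted by flow cytometry from skin, and each library was built from 40 ng of total RNA. SHERRY2 cuts RNA-DNA hybrids directly with a transposase, so no second strand is made before tagging. The labels do not name the Cre line that removed Alkbh5, the age at deletion, the gate used for sorting or the sex of the mice. The sources do not say whether the 4 mice of this set also gave the bulge libraries used further on for comparison, which were made from 200 ng of RNA of bulge stem cells at the same age, again with 2 mice in each genotype.

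The hair germ is a small cluster of epithelial cells beneath the bulge, the stem cell niche of the resting hair follicle. Hair germ cells are the first to divide when a resting follicle enters a new growth phase, and Wnt, FGF, BMP and Hedgehog signals from the niche and the dermal papilla govern that step. Alkbh5 removes the methyl group of N6-methyladenosine (m6A) from RNA, a mark that affects the stability and translation of transcripts. The comparison asks what the hair germ cells of cKO mice transcribe differently from those of WT mice.

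The libraries differed in depth and content before genotype was considered. Whole reads were recovered from the normalized values, and totals were 1513001 and 488648 in WT mice 1 and 2 and 1526070 and 2317407 in cKO mice 1 and 2. WT mouse 2 stood apart, with a Pearson r of log2 CPM (reads scaled to a common library total) across genes of 0.787 to 0.829 with the other libraries, which had r of 0.891 to 0.918 among themselves. Genes of olfactory, vomeronasal and trace amine receptors, which skin epithelium is not known to use at large, took 0.574 and 1.34% of reads in WT and 0.843 and 0.381% in cKO. Of 1720 such genes, 1490 to 1643 had reads in a library, so a low level of reads lay on most genes. Y-linked genes had 164 reads in cKO mouse 1 and at most 1 in any other library, and Xist was 21.0 CPM there against 166 to 311 elsewhere, so cKO mouse 1 was the only male.

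The follicle identity of the cells was checked against marker genes, and 1 library differed from the other 3. The basal keratins were abundant in all libraries, and Krt5 was 8508 and 8663 CPM in WT and 4827 and 7779 in cKO. Cdh3, the P-cadherin gene that marks hair germ and matrix, was 36.4 and 36.8 CPM in WT and 116 and 34.1 in cKO. Lgr5, a stem cell gene of the lower bulge and hair germ, was 16.5 and 24.6 CPM in WT and 89.1 and 10.8 in cKO. Both were highest in cKO mouse 1, and the other cKO library lay below both WT libraries.

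Transcription factors of follicle fate were also highest in cKO mouse 1, and cKO mouse 2 was the lowest library for Lhx2 and Lef1 but not for Hoxc13. Lhx2, a stem cell factor of the follicle, was 36.4 and 67.5 CPM in WT and 518 and 24.2 in cKO. Hoxc13, which drives hair keratin genes, was 3.97 and 4.09 CPM in WT and 119 and 5.61 in cKO. Lef1, a nuclear partner of beta-catenin in the germ, was 12.6 and 24.6 CPM in WT and 71.4 and 6.90 in cKO. Cd34, a surface marker of the bulge that the hair germ lacks, was 21.1 and 51.2 CPM in WT and 31.5 and 10.8 in cKO. It was 228 and 231 in the WT bulge libraries, but those were counted differently, so the levels are not directly comparable. Of the 17 hair germ and matrix genes in the edgeR fit, 10 were highest in cKO mouse 1, and so were 15 of 25 bulge stem cell genes, against 4143 of all 16707 genes. The markers Cdh3, Lgr5, Lhx2, Lef1 and Hoxc13 were thus highest in cKO mouse 1, and Cdh3, Lgr5, Lef1 and Hoxc13 were low in the other 3 libraries. The summed hair germ and matrix list did not single out that library, at 1789 and 1529 CPM in WT and 1795 and 1817 in cKO. Any difference that rests on follicle identity within these groups cannot be told apart from this library and its sex.

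**Figure D1:**
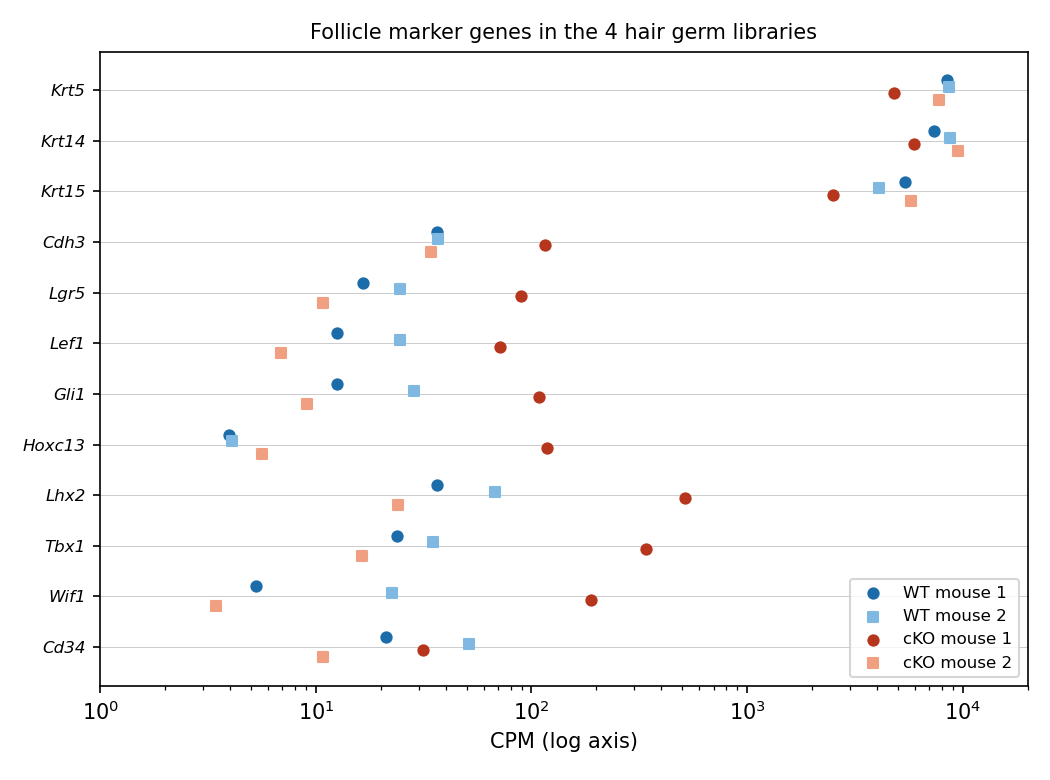
Each point is 1 library, the x axis is CPM on a log axis, and rows are follicle marker genes. Krt5, Krt14 and Krt15 are high in all 4 libraries, while Cdh3, Lgr5, Lef1, Gli1, Hoxc13, Lhx2, Tbx1 and Wif1 are highest in cKO mouse 1, and cKO mouse 2 lies near or below the WT libraries.

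Alkbh5 itself was lower in both cKO libraries. It was 62.8 and 61.4 CPM in WT (95 and 30 reads) and 17.7 and 6.90 CPM in cKO (27 and 16 reads), so the groups did not overlap. The log2 fold change was -2.31 (SE 0.54, adjusted p = 0.00993, edgeR's quasi-likelihood test on the recovered reads with Benjamini-Hochberg adjustment) and -1.98 by limma on log2 values (SE 0.61, adjusted p = 0.724). In the bulge the same gene changed by -4.97 (SE 0.27, edgeR), from 98.9 and 92.1 CPM to 4.45 and 2.52. The difference between the sets was 2.55 on the log2 scale (adjusted p = 0.0420, edgeR with a term for the set), so the remaining share of Alkbh5 reads was larger in the hair germ, a call lost without hair germ cKO mouse 1 (adjusted p = 0.144) or bulge cKO mouse 2 (adjusted p = 0.135), with a difference of 1.94 and 2.18. Alkbh5 was higher in hair germ cKO mouse 1 than in cKO mouse 2, as the receptor share was. The part of background reads in this difference between the sets was not tested. Fto, the other m6A eraser, was 82.0 and 104 CPM in WT and 97.6 and 76.4 in cKO, with overlapping groups. None of the 9 m6A writer genes and none of the 11 reader genes in the edgeR fit were called.

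Genotype separated few genes. By limma on log2(normalized count + 1), 3 of 38953 genes were called at an adjusted p under 0.05 (0.0077%), and all 3 were higher in cKO. By edgeR on the recovered reads, 63 of 16707 genes were called (0.377%), 17 higher (0.102%) and 46 lower (0.275%), and DESeq2 on the same reads called none. At an unadjusted p under 0.05 the numbers were 1801 by limma (4.62%), 824 by edgeR (4.93%) and 378 by DESeq2. None of the 63 edgeR calls was kept in all 4 fits that left out 1 library. Without WT mouse 1, 1 call was kept, without WT mouse 2 50, without cKO mouse 1 none and without cKO mouse 2 4. The sign of the fold change was kept by 44, 63, 59 and 63 of the 63 genes in those fits.

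**Figure D2:**
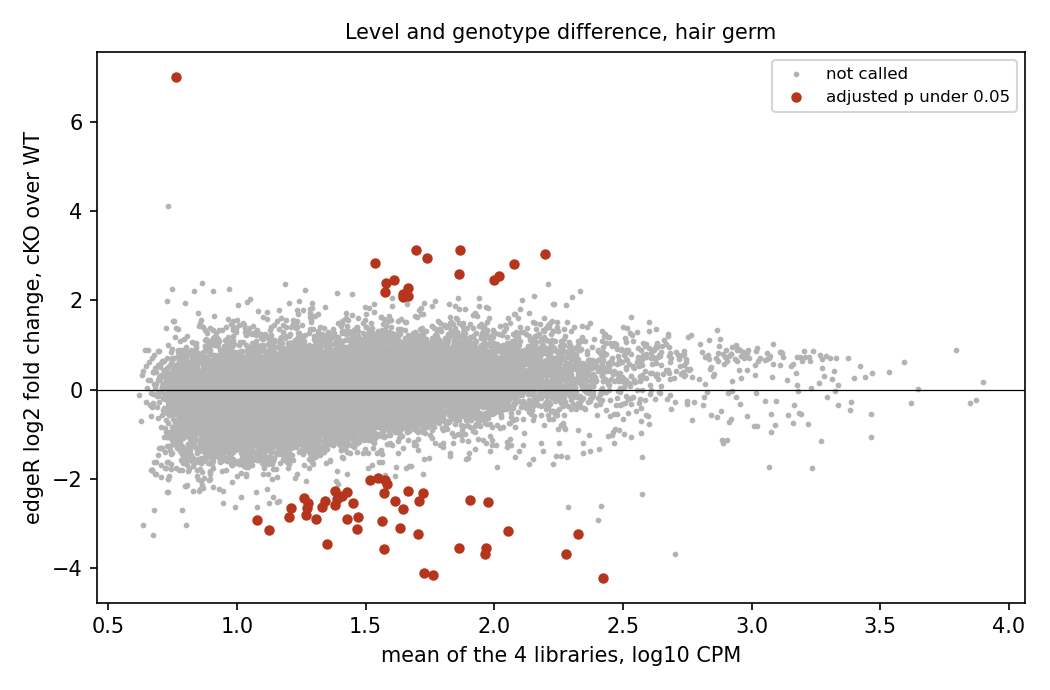
Each point is 1 of the 16707 genes of the edgeR fit, with the mean level of the 4 libraries on a log10 scale (x) and the log2 fold change of cKO over WT (y). Red points are the 63 genes with an adjusted p under 0.05, and the cloud drifts upward with level, from a median of -0.33 for genes with a mean normalized count from 1 to 10 to 0.35 for those of at least 100.

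That drift sets the scale for what follows. Genes with a mean normalized count of at least 100 had a median log2 fold change of 0.35 by edgeR and 0.67 by limma, against -0.03 and 0.06 over all genes tested. Such abundant genes took 45.9% of reads in WT mouse 2, the shallowest library, and 54.7 to 67.7% in the others. A list of abundant genes is therefore read beside 0.35, not beside 0.

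Gpha2 was called higher in cKO by both limma and edgeR. It encodes the alpha subunit of a glycoprotein hormone, thyrostimulin, and in RefSeq GRCm38.p6 it lies at chr19:6226401-6227768. It was 11.2 and 4.09 CPM in WT (17 and 2 reads) and 68.1 and 54.4 CPM in cKO (104 and 126 reads). Both cKO libraries lay well above both WT libraries and near each other. The log2 fold change was 2.84 (SE 0.58, adjusted p = 0.000999, edgeR) and 3.39 by limma (SE 0.61, adjusted p = 0.00887). It ranged from 2.34 to 4.40 in edgeR when 1 library was left out, with adjusted p of 0.0536 to 0.148, and the limma call was lost with a pseudocount of 0.1 (adjusted p = 0.912) and without the filter on low values (adjusted p = 0.922). With 17 and 2 reads in WT, it passed edgeR's filter on low counts through cKO, where it was high. In the bulge Gpha2 was 14.3 and 15.7 CPM in WT and 16.2 and 22.3 in cKO, with a log2 fold change of 0.19 (SE 0.23, adjusted p = 0.719, edgeR). The difference between the sets was 2.54 on the log2 scale and was not called (SE 0.57, adjusted p = 0.0781, edgeR with a term for the set). Of the other glycoprotein hormone genes on the list, 2 entered the edgeR fit and neither was called. Gpha2 overlaps Ppp2r5b on the opposite strand, and whether strand was used in counting is not given in the sources used here.

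The other limma calls rested on few reads. Gm15706, a gene model without a named product, was without reads in WT (0 in each library) and had 25 and 16 reads in the cKO libraries, which is at least 7.12-fold higher against a floor of 3 reads over the WT group. Krtap17-1, a keratin-associated protein gene of the hair shaft, had a single read in WT mouse 1, 0 in WT mouse 2, and 53 and 8 reads in the cKO libraries. The ratio of group CPM was 31.8 with an exact 95% interval of 5.49 to 1275, which covers counting error only. Most of its cKO reads came from cKO mouse 1. Among the 57 keratin-associated protein genes in the table no other was called.

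A group of 6 genes was called higher in both the hair germ and the bulge of cKO mice: Etv4, Ptp4a3, Dcxr, Fbxw9, Wnt6 and AI506816. They are 6 of the 17 genes called higher in the hair germ and 6 of the 229 called higher in the bulge, where 483 of 15468 genes were called (3.12%), 1.48% higher and 1.64% lower. All 6 had cKO libraries above WT libraries in the hair germ, where 28.2% of the genes in the edgeR fit had groups that did not overlap. The hair germ call of each was lost when any 1 library was left out, although the fold changes stayed positive.

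Etv4, an ETS transcription factor that FGF signalling induces, was 14.5 and 14.3 CPM in WT and 219 and 47.0 in cKO. The WT libraries were alike and cKO mouse 1 was the highest. Its log2 fold change was 3.14 (SE 0.62, adjusted p = 0.000664, edgeR) in the hair germ and 2.09 (SE 0.25, adjusted p = 0.00815) in the bulge. The other FGF pathway genes did not follow it as calls: of 17 in the edgeR fit Etv4 alone was called, the list median was 0.13, and Etv5, its close relative, was 19.2 and 22.5 CPM in WT and 39.3 and 28.5 in cKO (log2 fold change 0.81, adjusted p = 0.999). Dusp6, a MAP kinase phosphatase induced by the same pathway, was 43.0 and 30.7 CPM in WT and 206 and 23.3 in cKO, high in cKO mouse 1 alone.

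Ptp4a3, a phosphatase gene of the PRL family that p53 can induce, was 25.8 and 59.3 CPM in WT and 168 and 375 in cKO. Its log2 fold change was 3.03 (SE 0.76, adjusted p = 0.0240, edgeR) in the hair germ and 3.62 (SE 0.17, adjusted p = 0.000356) in the bulge. Here cKO mouse 2 was the highest, the reverse of the order for Etv4. Dcxr, an enzyme that reduces L-xylulose, was 41.6 and 24.6 CPM in WT and 105 and 308 in cKO, a log2 fold change of 2.81 (SE 0.71, adjusted p = 0.0235, edgeR). Fbxw9, an F-box protein gene, was 41.0 and 24.6 CPM in WT and 126 and 206 in cKO, a log2 fold change of 2.45 (SE 0.66, adjusted p = 0.0491, edgeR), and that call was lost with a robust estimate of spread (adjusted p = 0.0633).

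Wnt6, a Wnt ligand of skin epithelium, was 15.9 and 24.6 CPM in WT and 58.3 and 86.7 in cKO. Both cKO libraries were above both WT libraries. The log2 fold change was 2.10 (SE 0.56, adjusted p = 0.0462, edgeR) in the hair germ and 1.13 (SE 0.21, adjusted p = 0.0333) in the bulge. AI506816, a gene model without a named product, was 19.2 and 12.3 CPM in WT and 112 and 32.8 in cKO. In the hair germ libraries made by SMART-seq, another kit, these 6 genes had log2 fold changes from -1.22 to -0.01 and none was called, but the libraries labelled cKO there had Alkbh5 at a log2 fold change of only -0.28.

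Start regions are shown for Gpha2, called by both limma and edgeR, and for members of the shared group, so that a reader can see how unlike they are in base composition. RefSeq start regions were matched for 4 of the 6 shared genes, and Etv4 and Ptp4a3 were not matched. Each sequence is the 250 bases before the start used in the RefSeq start region, read 5′ to 3′ on the gene's strand from RefSeq GRCm38.p6. The Wnt6 window lies inside the span that RefSeq gives for the gene, chr1:74754342-74785322, so it precedes a start within that span, while the other windows end at the edge of their gene. Capitals mark GGGCGG, the GC box bound by Sp and Klf factors, and CCGGAAG, an ETS core, searched on both strands.
Gpha2, chr19:6226151-6226400, plus strand: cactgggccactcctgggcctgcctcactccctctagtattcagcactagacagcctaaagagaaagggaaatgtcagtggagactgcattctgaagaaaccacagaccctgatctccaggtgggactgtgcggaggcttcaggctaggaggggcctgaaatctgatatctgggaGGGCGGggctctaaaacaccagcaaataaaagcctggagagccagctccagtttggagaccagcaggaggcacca
Dcxr, chr11:120727285-120727534, minus strand: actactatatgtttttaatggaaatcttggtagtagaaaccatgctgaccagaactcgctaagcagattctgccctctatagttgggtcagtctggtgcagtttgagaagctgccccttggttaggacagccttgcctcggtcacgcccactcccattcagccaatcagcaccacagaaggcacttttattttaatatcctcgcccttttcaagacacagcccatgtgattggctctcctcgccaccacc
Fbxw9, chr8:85059869-85060118, plus strand: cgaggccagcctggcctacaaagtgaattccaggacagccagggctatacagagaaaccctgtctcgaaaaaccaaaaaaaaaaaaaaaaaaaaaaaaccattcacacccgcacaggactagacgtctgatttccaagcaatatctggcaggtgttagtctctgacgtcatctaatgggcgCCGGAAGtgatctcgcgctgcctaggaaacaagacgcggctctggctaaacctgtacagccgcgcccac
Wnt6, chr1:74771642-74771891, plus strand: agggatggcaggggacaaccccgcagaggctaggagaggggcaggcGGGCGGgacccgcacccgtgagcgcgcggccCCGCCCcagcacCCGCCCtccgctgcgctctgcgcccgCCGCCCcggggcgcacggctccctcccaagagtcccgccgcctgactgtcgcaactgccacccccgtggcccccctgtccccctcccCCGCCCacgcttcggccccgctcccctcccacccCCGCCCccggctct
The Wnt6 window was 79.6% G and C and held 6 GC boxes, while the Dcxr window was 48.8% G and C and held neither motif. Fbxw9 held 1 ETS core, and Gpha2 1 GC box. The AI506816 window, matched but not shown, was 67.2% G and C and held 2 GC boxes and no ETS core. Of all 27025 such windows, 32.4% held a GC box and 7.12% the ETS core. Of the 15 matched windows among genes called higher, 8 held a GC box and 1 the ETS core, and of the 34 matched among genes called lower, 15 and 1 did.

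Among the other genes called higher, 3 had both cKO libraries above both WT libraries. Gpnmb, a glycoprotein of melanosomes and lysosomes, was 19.2 and 28.7 CPM in WT and 94.4 and 149 in cKO (log2 fold change 2.60, SE 0.62, adjusted p = 0.0127, edgeR). It was the only one called of the 11 melanocyte genes in the fit. Chchd6, a subunit of the mitochondrial inner membrane complex MICOS, was 19.8 and 14.3 CPM in WT and 66.2 and 77.2 in cKO, as even a pattern as that of Gpha2 (log2 fold change 2.14, SE 0.55, adjusted p = 0.0333, edgeR). Fkbp11, a prolyl isomerase of the endoplasmic reticulum, was 12.6 and 14.3 CPM in WT and 97.6 and 26.3 in cKO (log2 fold change 2.18, adjusted p = 0.0277, edgeR).

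A further set of calls came from cKO mouse 1 alone. Of the 17 genes called higher, 8 were more than 3 times as high in cKO mouse 1 as in cKO mouse 2. These include Etv4, Fkbp11 and AI506816, in which cKO mouse 2 also lay above both WT libraries. Groups overlapped for 6 of the 17, and of these Sncg was instead highest in cKO mouse 2 (24.2 and 94.9 CPM in cKO). Wif1, a secreted Wnt inhibitor of the bulge and germ, was 5.29 and 22.5 CPM in WT and 188 and 3.45 in cKO. Tbx1, a T-box factor of follicle stem cells, was 23.8 and 34.8 CPM in WT and 341 and 16.4 in cKO. For both genes cKO mouse 2 was the lowest library. Their edgeR log2 fold changes with all 4 libraries were 2.95 and 2.55 (adjusted p = 0.000886 and 0.0240), and without cKO mouse 1 Wif1 was -1.25. The call of Wif1 was also lost with a robust estimate of spread (adjusted p = 0.999). Mfap2, Lbh and Shisa2, named after their values were seen, were also highest in cKO mouse 1, at 170.4, 128 and 147 CPM, against 3.88, 12.5 and 5.18 in cKO mouse 2. Among them cKO mouse 2 was the lowest library for Shisa2 only, and Lbh stayed positive in every edgeR fit without 1 library (lowest 0.50). These calls came from the library in which Lhx2, Hoxc13 and Lgr5 were high, and the part of follicle identity in them was not tested.

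**Figure D3:**
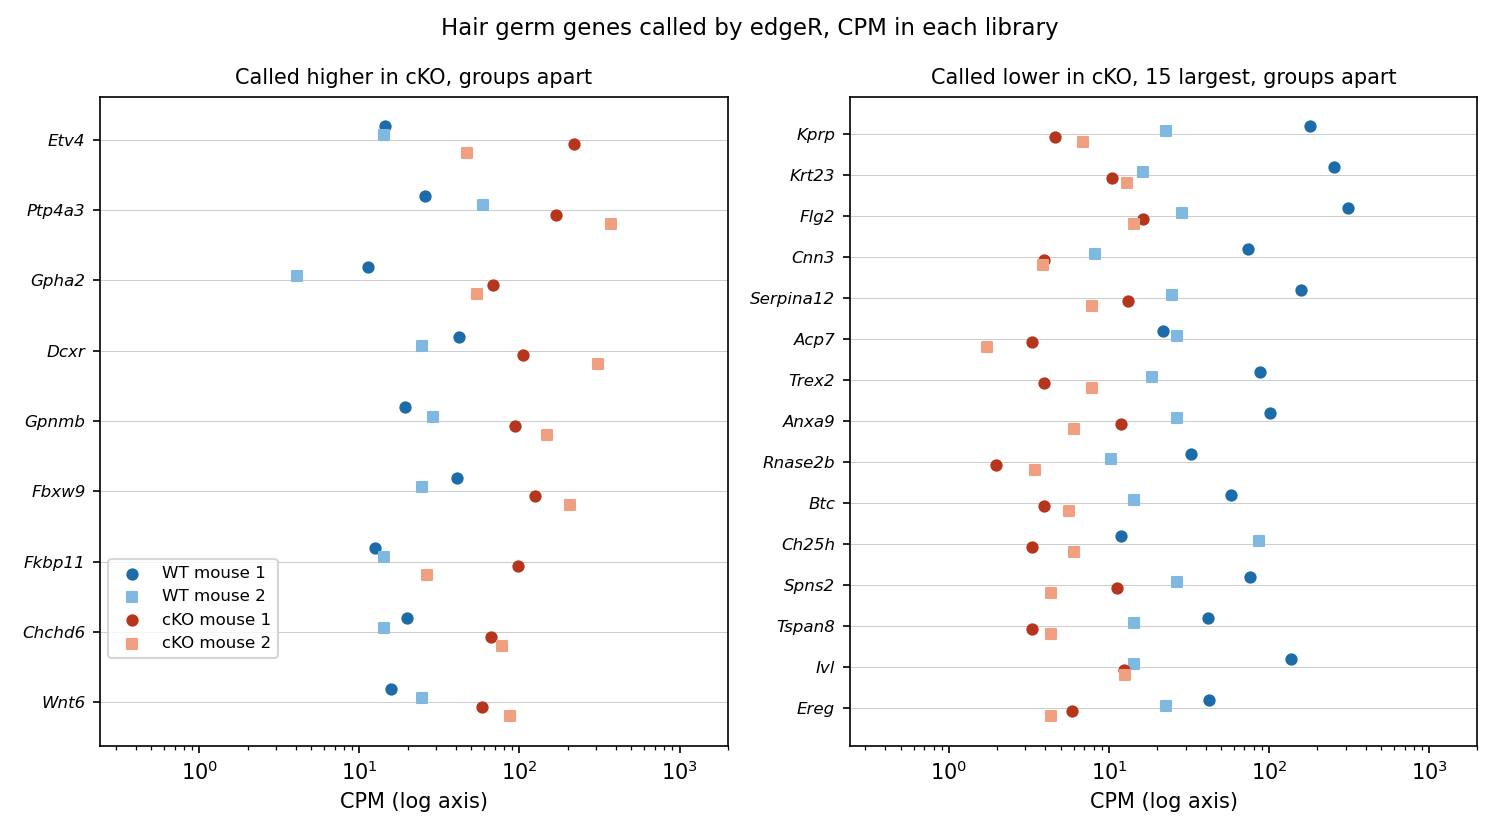
Each point is 1 library and the x axis is CPM on a log axis. Rows are genes called by edgeR whose groups do not overlap, gene models without a named product left out, higher in cKO on the left and the 15 largest lower in cKO on the right; Gpha2, Chchd6 and Wnt6 have both cKO points close together, while on the right WT mouse 1 is highest in every row except Acp7 and Ch25h.

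Of the 46 genes called lower in cKO, 8 were on the list of epidermal differentiation genes, which act in the outer layers of the epidermis. Of the 21 epidermal differentiation genes in the edgeR fit, 19 had negative log2 fold changes, 8 were called lower (Ivl, Flg, Flg2, Klk5, Klk7, Cdsn, Dsc1 and Hrnr) and none was called higher, and the list median was -1.52. These include envelope proteins (Ivl), filaggrin-type proteins of the granular layer (Flg, Flg2, Hrnr), adhesion proteins of cornified cells (Cdsn, Dsc1) and the proteases that cut them (Klk5, Klk7). The list summed to 16419 CPM in WT mouse 1, 2726 in WT mouse 2 and 2990.0 and 4702 in the cKO libraries. WT mouse 1 thus stood far above the other 3, and WT mouse 2 below both cKO libraries. Without WT mouse 1 the median was 0.50.

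Single genes showed the same. Asprv1, a protease that processes filaggrin, was 994 and 12.3 CPM in WT and 28.2 and 28.5 in cKO. Cdsn, which holds cornified cells together, was 747 and 20.5 CPM in WT and 23.6 and 56.1 in cKO. Klk7 was 691 and 12.3 CPM in WT and 20.3 and 34.5 in cKO. In each, WT mouse 2 was below both cKO libraries, although the edgeR log2 fold changes were -4.20, -3.22 and -3.67 (adjusted p = 0.00301, 0.0250 and 0.00401). Kprp, a keratinocyte proline-rich protein gene, was 179.8 and 22.5 CPM in WT and 4.59 and 6.90 in cKO, so that both WT libraries lay above both cKO libraries (log2 fold change -4.11, SE 0.62, adjusted p = 3.55e-07, edgeR). Over all 46 genes called lower, WT mouse 1 was the highest library for 43, it was more than 3 times WT mouse 2 for 32, and the groups did not overlap for 30. Late cornified envelope genes, a list added after the table was seen, summed to 1186 CPM in WT mouse 1 and 25.9 to 53.2 in the other libraries, and none entered the edgeR fit.

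Some of these genes are neighbours. Between Ivl and Hrnr on chr3:92570899-93333572 (RefSeq GRCm38.p6), within the epidermal differentiation complex, 42 genes are annotated and 6 entered the edgeR fit, and all 6 were called lower: Ivl, Kprp, Crct1, Flg2, Flg and Hrnr. Ivl was 137 and 14.3 CPM in WT and 12.5 in each cKO library, and Flg2 was 313 and 28.7 CPM in WT and 16.4 and 14.2 in cKO. For Ivl, and for Crct1 at 211.5 and 8.19 CPM in WT and 3.93 and 8.20 in cKO, WT mouse 2 lay near the cKO libraries. Without WT mouse 1 the edgeR log2 fold changes of Ivl and Crct1 were 0.37 and 0.24. Flg, Flg2, Kprp and Hrnr stayed negative in every edgeR fit without 1 library. By limma without WT mouse 1, Flg and Flg2 were 0.020 and 0.0066. In cKO, Kprp had 7 and 16 reads, Crct1 6 and 19 and Hrnr 18 and 13, too few to pass the filter on low counts without WT. That all 6 were called lower is thus not independent of the filter. The other annotated genes did not enter the fit, so these 6 do not stand for the region.

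Ligands of the EGF receptor family formed another neighbouring group. Areg, Ereg and Btc lie on chr5:91074617-91402994, and all 3 were called lower in cKO. This family was singled out after the calls were seen. Ereg, which encodes epiregulin, was 42.3 and 22.5 CPM in WT and 5.90 and 4.32 in cKO (log2 fold change -2.65, SE 0.64, adjusted p = 0.0133, edgeR). Btc, which encodes betacellulin, was 57.5 and 14.3 CPM in WT and 3.93 and 5.61 in cKO (log2 fold change -2.89, SE 0.62, adjusted p = 0.00263, edgeR). Both WT libraries lay above both cKO libraries for these genes. With 9 and 10 reads for Ereg and 6 and 13 for Btc in cKO, they passed the filter on low counts through WT, where they were high. Leaving out 1 library made the edgeR value range from -3.14 to -1.60 for Ereg and from -3.59 to -0.95 for Btc. Areg, which encodes amphiregulin, was 84.6 and 18.4 CPM in WT and 19.7 and 8.63 in cKO, with overlapping groups (log2 fold change -2.01, adjusted p = 0.0423, edgeR), and without WT mouse 1 its value was 0.08. In the bulge Areg was also called lower, at -2.82.

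The remaining ligands of the family were not called. Hbegf was 427 and 223 CPM in WT and 133 and 103 in cKO, without overlap (log2 fold change -1.42, adjusted p = 0.999, edgeR), and it was called lower in the bulge at -2.03. Epgn, which encodes epigen and neighbours Ereg at chr5:91027517-91035212, was 82.6 and 45.0 CPM in WT and 116 and 124 in cKO, opposite in sign to Ereg, Areg and Btc. Tgfa and Egf had overlapping groups.

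A few genes were lower in cKO and similar in both WT mice. Ovol1, a zinc-finger repressor that promotes epidermal differentiation, was 38.3 and 43.0 CPM in WT and 7.86 and 7.34 in cKO (log2 fold change -2.26, SE 0.59, adjusted p = 0.0380, edgeR). Egr4, an immediate early transcription factor, was 36.4 and 28.7 CPM in WT and 5.90 and 4.75 in cKO (log2 fold change -2.53, SE 0.64, adjusted p = 0.0244, edgeR). Acp7, an acid phosphatase gene, was 21.8 and 26.6 CPM in WT and 3.28 and 1.73 in cKO (log2 fold change -3.15, adjusted p = 0.0153, edgeR). In these genes the libraries of each group lay close together. Their edgeR values stayed negative in every fit without 1 library, but each call was lost without WT mouse 1, cKO mouse 1 or cKO mouse 2. With 9 and 11 reads for Egr4 and 5 and 4 for Acp7 in cKO, both passed the filter on low counts through WT, where they were high. Counts were small for Ovol1 too, at 58, 21, 12 and 17 reads, and leaving out a library made its fold change range from -2.43 to -1.92.

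Ch25h and Tspan8 were called lower in both cell types. Ch25h, which makes 25-hydroxycholesterol, was 11.9 and 86.0 CPM in WT and 3.28 and 6.04 in cKO (log2 fold change -2.88, adjusted p = 0.00386, edgeR), and here WT mouse 2 was the highest. In the bulge it was 39.2 and 32.7 CPM in WT and 9.17 and 3.58 in cKO. Tspan8, a tetraspanin gene, was 41.6 and 14.3 CPM in WT and 3.28 and 4.32 in cKO (log2 fold change -2.84, adjusted p = 0.0105, edgeR). With 5 and 14 reads for Ch25h and 5 and 10 for Tspan8 in the hair germ cKO libraries, both passed the filter on low counts through WT.

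Pathways that act at the start of hair growth showed few calls. Of 39 Wnt pathway genes in the edgeR fit 26 were positive with a median of 0.26, and the calls were Wnt6 and Wif1, the ligand and the inhibitor described above. Of 14 Hedgehog pathway genes 11 were positive with a median of 0.44 and none was called. Gli1, a target gene of the pathway, was 108 CPM in cKO mouse 1 and 9.06 to 28.7 in the other libraries. Of 26 BMP genes, 16 TGF-beta genes and 16 Notch genes none was called, with medians of 0.18, -0.03 and -0.25. By limma the TGF-beta and Notch medians were 0.25 and 0.058 with the size factors of the authors and -0.023 and -0.21 on TMM-scaled values, so their sign depended on the scaling. Summed Hedgehog and FGF list levels were 932 and 1559 CPM in cKO mouse 1, above every other library, while cKO mouse 2 at 438 and 719.8 lay near or below the WT libraries at 419.7 and 601.7 for Hedgehog and 824 and 784 for FGF. Without cKO mouse 1 the medians were 0.01 for Wnt, 0.10 for Hedgehog and -0.13 for FGF.

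Ccnd1, the cyclin D1 gene, differed by more than either group's spread without being called. It was 93.9 and 63.4 CPM in WT and 419 and 282 in cKO, with no overlap (log2 fold change 2.20, SE 0.77, adjusted p = 0.497, edgeR), and in the bulge it was called higher at 1.40. S phase genes had 17 of 21 positive values with a median of 0.56 and none called, and Mcm2, a helicase subunit, was 55.5 and 67.5 CPM in WT and 126 and 125 in cKO. G2 and M phase genes went the other way, with 17 of 24 negative and a median of -0.23. They summed to 1328 and 2881 CPM in WT and 962 and 1947 in cKO, so the spread within each genotype was larger than the difference. The median turned to 0.24 without WT mouse 2, 0.35 without cKO mouse 1 and 0.15 by DESeq2.

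Targets of p53 had 15 of 19 positive values in the edgeR fit with a median of 0.47 and none called, beside 0.35 for abundant genes. Ccng1, a cyclin G gene induced by p53, was 34.4 and 16.4 CPM in WT and 69.5 and 109 in cKO, without overlap (log2 fold change 1.87, SE 0.56, adjusted p = 0.169, edgeR). Cdkn1a, which encodes the arrest protein p21, was 598 and 458 CPM in WT and 329 and 919 in cKO, so that the cKO libraries lay on either side of WT.

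Immediate early genes, which dissociation and stimulation induce within minutes, had 22 of 23 negative values, a median of -0.55 and 1 call, Egr4. In the bulge the median of the same genes was -2.23. Egr3 was 100.5 and 57.3 CPM in WT and 40.6 and 15.5 in cKO (log2 fold change -1.54, adjusted p = 0.434, edgeR). Nr4a1 was 1535 and 2108 CPM in WT and 745 and 293 in cKO (log2 fold change -1.74, adjusted p = 0.999, edgeR). Both had groups without overlap, while Fos, at 9820.2 and 6358 CPM in WT and 5544 and 6542 in cKO, overlapped, and its sign differed between limma and edgeR. Without WT mouse 1 the list median was -0.05.

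Ribosomal protein genes and nuclear genes of oxidative phosphorylation were positive throughout, 30 of 30 and 20 of 20, with medians of 0.72 and 0.93 and no calls. All 30 ribosomal protein genes were lowest in WT mouse 2 and highest in cKO mouse 2, which are the libraries with the fewest and the most reads and with the largest and the smallest share of receptor reads. Without cKO mouse 2 the ribosomal median was 0.04. The part of depth and of the background reads in these medians was not tested.

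Markers of other skin cells were mostly negative without being called. The median was -0.67 for immune genes (15 of 18 negative), -0.44 for endothelial genes (9 of 10), -0.53 for fibroblast genes (11 of 16) and -0.52 for muscle genes (9 of 11), beside -0.41 for receptor genes (292 of 364). Without WT mouse 2 the medians were -0.28, 8.88e-05, 0.077 and 0.31, and that of receptor genes was 0.037. In bulk RNA fewer cells of a type and less RNA per cell cannot be told apart. None of the immune, endothelial, fibroblast, muscle or nerve genes was called. All 10 endothelial genes, 13 of 18 immune genes, 12 of 16 fibroblast genes and 9 of 11 muscle genes of the edgeR fit were highest in WT mouse 2. So were 296 of 364 receptor genes and 8206 of all 16707 genes. Immune genes summed to 539 and 1083 CPM in WT and 737 and 389.7 in cKO, and endothelial genes to 117 and 287 in WT and 171 and 78.1 in cKO. The order of the libraries in both sums was that of the receptor share, and its part in them was not tested.

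**Figure D4:**
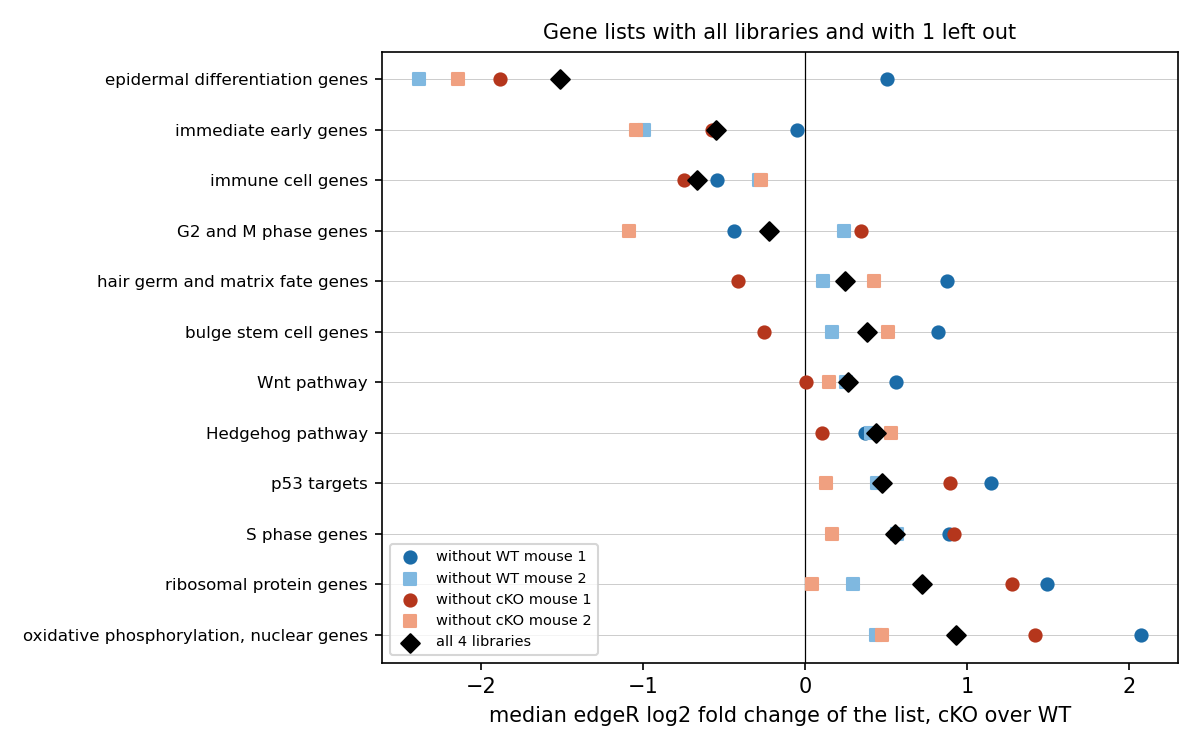
Each row is a gene list and the x axis is its median edgeR log2 fold change, cKO over WT. Black diamonds use all 4 libraries and coloured points leave 1 library out; the epidermal differentiation median moves from -1.52 to 0.50 without WT mouse 1, and the hair germ and bulge list medians turn negative without cKO mouse 1.

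Across cell types the hair germ difference followed that of the bulge in part. Of the 224 genes called higher in the bulge that entered the hair germ fit, 152 were positive in the hair germ (67.9%) with a median of 0.29, against 57.5% positive and a median of 0.10 over all 12661 shared genes. Of the 246 called lower in the bulge, 166 were negative (67.5%) with a median of -0.29, against 42.5% over all. Called genes in both were 6 higher and 4 lower, the latter Alkbh5, Areg, Ch25h and Tspan8. Those 4 are among 46 called lower in the hair germ and 254 in the bulge. Across the shared genes the log2 fold changes of the sets had a Pearson r of 0.104, given as a description since genes are not independent. Without WT mouse 1 the genes called lower in the bulge had 34.1% negative and a median of 0.39, beside 33.6% and 0.41 over all, while those called higher in the bulge had 69.8% positive beside 66.4%. In the other 3 fits without 1 library, 62.9 to 75.6% of the genes called higher in the bulge were positive, beside 52.4 to 59% over all. Of those called lower in the bulge, 56.9 to 78.5% were negative, beside 41 to 47.6% over all.

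**Figure D5:**
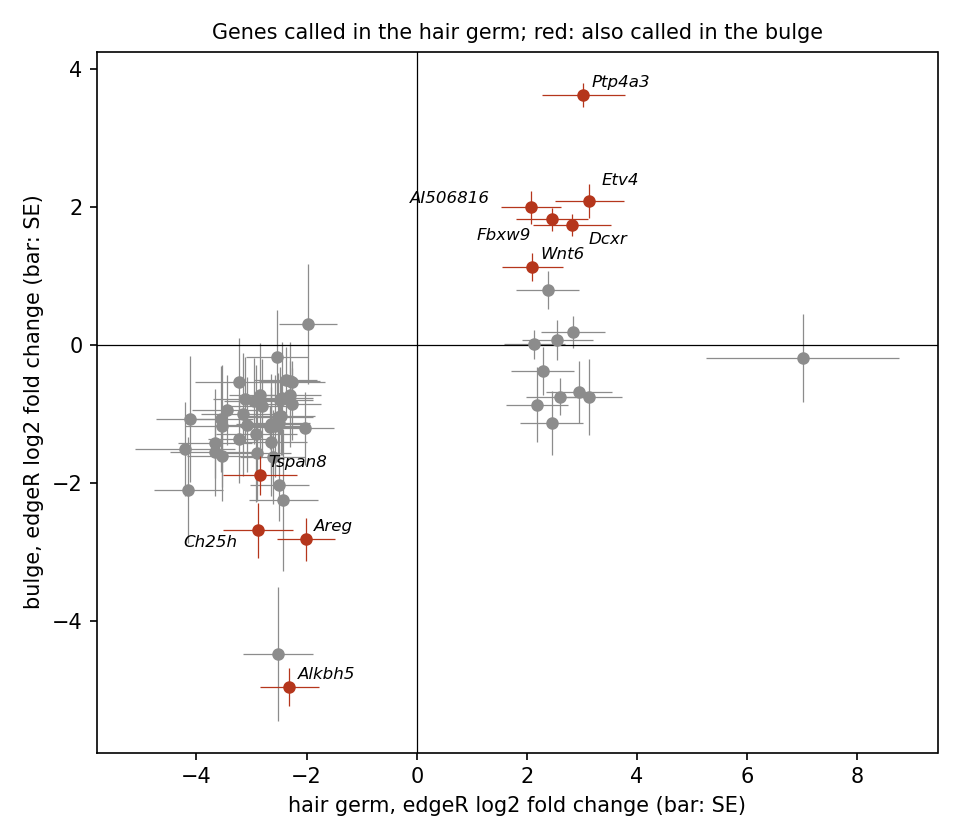
Each point is a gene called by edgeR in the hair germ that also entered the bulge fit, with its log2 fold change there (x) and in the bulge (y), and bars are standard errors. Red points, labelled, are also called in the bulge: 6 are higher in both and 4 lower in both, and no gene called in both has opposite signs.

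A joint fit of both SHERRY2 sets tested where the genotype difference itself was unequal, and 31 of 26163 genes were called (0.118%), 13 higher (0.0497%) and 18 lower (0.0688%) in the hair germ relative to the bulge. Lmo1, a LIM-domain transcription cofactor, was 80.6 and 104 CPM in WT and 279 and 155 in cKO of the hair germ, and 71.4 and 73.6 in WT and 36.3 and 38.8 in cKO of the bulge (difference 2.37, SE 0.45, adjusted p = 0.0216, edgeR), a call lost without bulge WT mouse 2 or either bulge cKO mouse (adjusted p = 0.0522 to 0.0666).

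Some genes that were far higher in the cKO than in the WT libraries of the bulge had overlapping groups in the hair germ. Serpine2, a protease inhibitor gene, was 1.13 and 0.954 CPM in WT and 82.0 and 73.2 in cKO of the bulge, and 7.27 and 45.0 in WT and 57.7 and 24.6 in cKO of the hair germ (difference -5.04, SE 0.68, adjusted p = 0.000361, edgeR), and the difference was -5.99 without hair germ WT mouse 1 and -3.70 without hair germ WT mouse 2, called in both fits. Igsf9b, a synaptic adhesion gene, was 1.46 and 2.45 CPM in WT and 40.8 and 32.2 in cKO of the bulge, and 31.1 and 51.2 in WT and 37.4 and 31.1 in cKO of the hair germ (difference -4.23, adjusted p = 0.00015, edgeR). Both genes had higher CPM in the WT hair germ libraries than in the WT bulge libraries, but the sets were counted differently. Igsf9b was highest in hair germ WT mouse 2, as the receptor share was. The part of those background reads in the difference was not tested.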

How the data were processed

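RNA of sorted hair germ cells was sequenced after SHERRY2. The submitters' processing notes name FastQC, Trim Galore, STAR, featureCounts and DESeq2 and the builds GRCm38 and mm10. The authors deposited a signal per gene and library that the column names and values show to be read counts divided by a size factor; its fold change and p columns were not used. Dividing by the smallest step gave whole reads for 100% of values (tolerance 0.01 reads). Bulge and SMART-seq values are read counts as the authors deposited them. Hair germ and bulge reads were counted differently, so genotype differences rather than levels were tested between those sets. Limma 3.58.1 (trend) tested log2(normalized count + 1) over genes with a mean of at least 1, the main test. As alternatives, edgeR 4.0.16 (quasi-likelihood, filterByExpr, TMM) and DESeq2 1.42.0 were run on the recovered reads, and edgeR on the bulge, the SMART-seq libraries and both SHERRY2 sets jointly. P-values were adjusted by Benjamini-Hochberg over all genes tested. In edgeR the spread of each gene was taken wholly from its level (infinite prior degrees of freedom), so 1 high library could give a call. In limma the spread was drawn strongly toward that of genes of like level (72.4 prior degrees of freedom). P-values and SEs of both tests thus rest on 2 mice a group and little or not at all on a gene's own spread between them. Scripts were tested on simulated data.

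CPM are recovered reads scaled by library total. Named were all limma calls, the 15 largest edgeR calls in each direction with groups apart and no model name, called list members or otherwise up to 4 with the smallest p, and 6 genes a direction for the difference from the bulge. Some genes that this rule names are not reported here. Other genes named with values were chosen after their values were seen. The gene lists, members and alternatives were chosen with earlier results of these data known. The newer olfactory receptor names, the late cornified envelope list and the EGF family were added after the table was seen. Krt85, Sprr2a1, Atp5po and mitochondrially encoded genes were not matched to rows. Start regions and coordinates are from RefSeq GRCm38.p6.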

Additional observations from a re-analysis of the deposited data

Results flagged for a closer look

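In the joint edgeR fit of the hair germ and bulge SHERRY2 libraries, the genotype difference itself was unequal between the cell types for the genes given here, each by a test of that difference. Values are the log2 fold change in the hair germ minus that in the bulge. The differences were positive for Gpnmb (3.225), Abi3bp (4.108), Lmo1 (2.374), Crip1 (2.332), Alkbh5 (2.55) and Eif2s3y (18.39). They were negative for Gria3 (-9.524), Igsf9b (-4.234), Serpine2 (-5.036), Celf5 (-5.902), Hmcn2 (-7.545) and Atg9b (-4.049).

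Crip1, a LIM-domain protein gene, was 46.9 and 63.4 CPM in WT and 241 and 162 in cKO of the hair germ, and 46.4 to 50.01 in WT and 46.9 and 34.4 in cKO of the bulge. Abi3bp, an extracellular matrix gene, was 38.3 and 36.8 CPM in WT and 234 and 21.6 in cKO of the hair germ, so only cKO mouse 1 was high, and the difference was 1.79 without it (adjusted p = 0.126) and 4.97 without cKO mouse 2. Crip1 lost its call without bulge WT mouse 2 or bulge cKO mouse 2 (adjusted p = 0.0631 and 0.1496). Eif2s3y is Y-linked and had reads in cKO mouse 1 of the hair germ and WT mouse 2 of the bulge, so its value follows the sex of the mice, and with a group at 0 reads it depends on the prior count, and it was 8.91 without the former and 9.46 without the latter, neither called.

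Gria3, a glutamate receptor gene, was 0 and 0.136 CPM in WT and 48.6 and 35.6 in cKO of the bulge, and 9.25 and 51.2 in WT and 22.9 and 13.8 in cKO of the hair germ. The Gria3 difference was -10.42 and -8.29 without hair germ WT mouse 1 or 2 and -8.45 and -12.02 without bulge WT mouse 1 or 2. Without bulge cKO mouse 2 that of Hmcn2 was -6.49, and without hair germ cKO mouse 1 that of Atg9b was -4.95. Hmcn2 had 0 reads in both WT bulge libraries, so its fitted value depends on the prior count too. In the hair germ Gria3, Igsf9b, Celf5 and Hmcn2 were highest in WT mouse 2, as were 8206 of all 16707 genes of the edgeR fit. That library had the largest share of receptor reads, and the part of those reads was not tested.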

How the results depend on the processing

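With 2 mice a genotype, none of the 63 edgeR calls held in all fits that left out 1 library. The number of genes called was 3 by limma with a pseudocount of 1. It was 0 with a pseudocount of 0.1, 19 with 5, 0 with no filter on low values, 16 with a mean of at least 10 and 5 on TMM-scaled values. On recovered reads it was 63 by edgeR and 0 by DESeq2, where 378 genes had an unadjusted p under 0.05. In settings chosen after seeing the data, it was 56 by edgeR with a robust spread and 0 on genes with a mean of at least 100. Leaving out WT mouse 1 gave 0 calls by limma and 1 by edgeR, WT mouse 2 gave 105 and 113, cKO mouse 1 gave 0 and 1, and cKO mouse 2 gave 13 and 16; a genotype with 1 library is assumed to vary like the other. Alkbh5 was negative in every fit, at -2.31 by edgeR with and without the robust spread (called in both) and at -2.72 to -1.502 when 1 library was left out, where it was called only without WT mouse 2. The difference from the bulge was called for 31 genes, and for 30 to 582 when 1 library was left out, the highest without hair germ WT mouse 1.

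Mice share numbers across genotypes, but the labels give no litter or day, and deviations of WT mouse 1 and cKO mouse 1 from their group means correlated at -0.448 across genes. With the number as a replicate block, limma called 5 genes and edgeR 0, and the difference from the bulge was called for 69. With the crossed pairing, chosen after seeing the data, limma called 468 genes and edgeR 140, Alkbh5 among them at -1.98 and -2.34.

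Among the genes named in the text, the signs of some that no limma fit on all 4 libraries called turned with the setting, and the cause was not tested. Against the sign by limma, log2 fold changes were -0.30 for Fos, -0.37 for Gria3 and -0.071 for Igsf9b by edgeR, with and without the robust spread. By DESeq2 they were -0.066 for Fos, -0.016 for Gria3 and 0.061 for Krt5, and on TMM-scaled values -0.25 for Fos, -0.15 for Gria3, -0.080 for Igsf9b and -0.16 for Krt15. With the replicate block in edgeR they were -0.25 for Fos, -0.18 for Gria3, -0.081 for Igsf9b and -0.16 for Krt15. With the crossed one they were -0.072 for Atg9b, -0.25 for Fos, -0.20 for Gria3, -0.065 for Igsf9b and -0.16 for Krt15. On genes with a mean of at least 100, edgeR gave -0.0072 for Cdkn1a, -0.63 for Fos, -0.33 for Fto, -0.33 for Krt14 and -0.44 for Krt15.

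Leaving out 1 library, by limma or edgeR, turned further signs. Without WT mouse 1 these were Areg (range over all such fits -2.75 to 0.39), Asprv1 (-5.19 to 2.01), Cdsn (-4.36 to 1.69), Crct1 (-5.11 to 0.37), Flg (-3.18 to 0.020), Flg2 (-4.43 to 0.0066), Ivl (-3.52 to 0.67) and Klk7 (-4.69 to 1.92). Without cKO mouse 1 they were Abi3bp (-0.37 to 2.67), Celf5 (-0.91 to 0.064), Dusp6 (-0.28 to 2.54), Gli1 (-0.58 to 2.52), Lef1 (-0.85 to 2.03), Lgr5 (-0.41 to 2.16), Lhx2 (-0.55 to 3.43), Mfap2 (-0.79 to 4.33), Shisa2 (-1.01 to 3.33), Tbx1 (-0.33 to 3.59), Tgfa (-0.080 to 1.03), Wif1 (-1.25 to 4.05) and Xist (-3.77 to 0.18). Without either of those libraries Klk5 (-3.46 to 2.54) and Krt5 (-0.91 to 0.68) turned. Without WT mouse 2 Fto (-0.013 to 0.63) turned, without it or cKO mouse 1 Atg9b (-0.62 to 0.90) and Ppp2r5b (-0.75 to 6.73), and without it or cKO mouse 2 Cdkn1a (-0.80 to 1.63), Fos (-0.74 to 0.83) and Krt15 (-1.04 to 1.12). Without cKO mouse 2 Cd34 (-1.13 to 0.00032) and Krt14 (-0.48 to 1.07) turned, without it or WT mouse 1 Igsf9b (-0.14 to 0.45), and without any library but WT mouse 2 Gria3 (-0.97 to 0.87). Depth limits low genes: 0 reads allow up to 6.14 CPM in WT mouse 2 and 1.29 to 1.98 in the other libraries, counting error only.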
